A study of Mus musculus with 6 samples.

Results

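The genes of the mitochondrial ribosome were examined in mouse small-intestinal organoids given arachidonic acid, a polyunsaturated fatty acid of membranes and the precursor of prostaglandins. They were taken as every protein-coding entry whose symbol starts with Mrpl or Mrps followed by a digit, which gave 78 genes of 53953 listed, and 5 pseudogenes with such symbols were left out. The organoids were grown in Matrigel from crypts of the proximal small intestine of C57BL/6 wt mice and were at passage 3 to 5. In the 3 arachidonic acid libraries the organoids had received the fatty acid for 3 days before passaging, in the 3 vehicle libraries they had received the solvent alone, and RNA was taken on day 3 after passaging. All 6 libraries share the strain, tissue and medium and 0.1% ethanol, in which the fatty acid was dissolved, and the dose of the fatty acid is not known from the labels. The labels do not tie libraries to separate mice or cultures, so p-values cover only the spread seen among these 6, and that spread could be technical. The comparison addresses what the RNA of intestinal organoids looks like after exposure to arachidonic acid, which the study set against regeneration and Wnt signaling.

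Mitochondria keep a small genome of their own, and the few proteins it encodes, all of them core subunits of the respiratory chain and the ATP synthase, are made on a dedicated ribosome in the matrix. The RNAs of that ribosome come from the mitochondrial genome, but every one of its proteins is encoded in the nucleus, made in the cytosol and imported. The large subunit holds the site where peptide bonds form and the exit tunnel, the small subunit binds the message and decodes it, and each combines proteins that have a counterpart in bacterial ribosomes with proteins found in mitochondrial ribosomes. In the intestine, mitochondrial respiration is known to differ between crypt stem cells, Paneth cells and absorptive cells, and organoids hold these cells in a mixture. Since the libraries are bulk RNA, fewer cells of a type and less RNA per cell cannot be told apart.

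Values are FPKM, fragments per gene scaled by transcript length and by the assigned fragments of the library, so they are relative to the rest of each library. The libraries held 36.6 to 38.5 M assigned fragments with vehicle and 35.6 to 50.8 M with arachidonic acid. All 10 epithelial markers were at 1 FPKM or more, with summed levels of 3718 to 3826 FPKM with vehicle and 5206 to 6113 FPKM with arachidonic acid. The higher sum came from the keratins Krt8, Krt18 and Krt19, which rose, while Epcam and Cdx2 fell (limma adjusted p = 0.017 and 0.026) and the other 5 passed in neither direction. Fibroblast and mesenchyme markers, 1 of 10 (Vim) at 1 FPKM or more and 1 of 10 (Lum) at 0 throughout, summed to 4.46 to 6.02 FPKM with vehicle and 0.617 to 1.96 FPKM with arachidonic acid. Immune markers, 1 of 10 (Cd68, also a lysosome gene) at 1 FPKM or more, summed to 2.20 to 3.29 FPKM with vehicle and 5.30 to 25.6 FPKM with arachidonic acid. Endothelial markers, with 1 of 5 (Cdh5) at 0 throughout, stayed under 1 FPKM in sum, and those of neurons and glia, with 1 of 5 (Tubb3) at 1 FPKM or more and 1 of 5 (Sox10) at 0, summed to 3.25 to 4.80 FPKM with vehicle and 1.39 to 1.85 FPKM with arachidonic acid. The part of these other cell types in the results was not tested.

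Most mitochondrial ribosomal protein genes had slightly lower levels after arachidonic acid, and most did not pass the adjusted threshold. Of the 77 genes that passed the filter of a mean of at least 1 FPKM, 63 had a log2 fold change below 0 and 14 above 0, and the median was -0.16, against -0.03 over all 12913 genes tested. The median change in mean FPKM was -10.3%. Past an adjusted p of 0.05 (limma, Benjamini-Hochberg over all genes tested), 15 members were lower and 2 were higher. These are 19.5% and 2.60% of the members tested, where 19.4% of all genes tested were lower and 20.8% were higher, 40.2% in all. In this fit the share that fell thus lay at the background, and the share that rose lay under it, a difference that was not tested. Where the share that fell lay relative to the background depended on the setting. With each library rescaled to the same sum (TPM, transcripts scaled to 1000000 in all) the split was 8 lower and 5 higher, 10.4% and 6.49% of members against 15.9% and 23.9% of all genes in that fit. With quantile normalization 35.1% of members were lower against 23.0% of all genes. Without the first arachidonic acid library 37 members were lower and 3 higher, 48.1% and 3.90% against 32.4% and 27.5%. Without any other single library 6 to 10 were lower, 7.79% to 13.0% against 9.63% to 11.5% of all genes, and 1 or 2 were higher. In all 15 fits the share of members that rose was under that of all genes.

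The changes were small in size. The log2 fold changes ran from -0.52 to 0.34, with Mrps23 alone outside at 0.74 on values that did not replicate. The median size of change, without its sign, was 0.18 among the members and 0.27 among all genes tested. Genes at similar levels, the 5091 tested with a mean of 20 to 150 FPKM, had a median log2 fold change of -0.01, with 24.3% higher and 19.9% lower. Their median size of change was 0.24. The 3 arachidonic acid libraries all lay under the 3 vehicle libraries for 31 members, and all above them for 6. Among all genes tested, 27.5% had the arachidonic acid libraries all below and 27.6% had them all above, 55.0% in all.

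**Figure D1:**
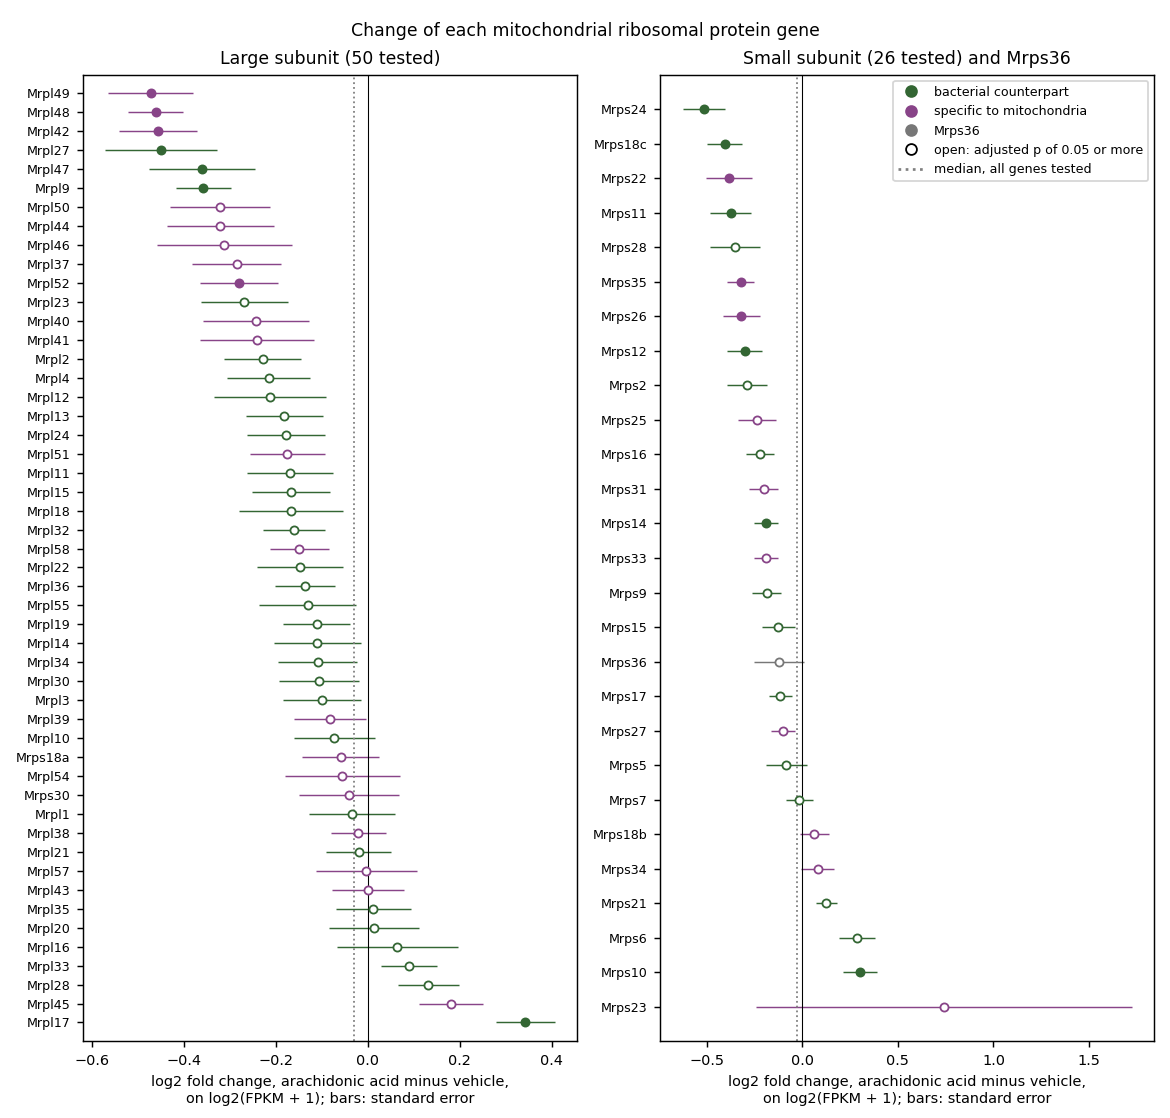
Log2 fold change of each of the 77 tested mitochondrial ribosomal protein genes, arachidonic acid minus vehicle on log2(FPKM + 1), with 1 point a gene, bars for the standard error, green for proteins with a bacterial counterpart, purple for proteins specific to mitochondria and filled points for an adjusted p under 0.05. The left panel holds 50 large subunit genes and the right one 26 small subunit genes and Mrps36, on different scales, and 63 of the 77 points lie left of 0.

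The largest falls were in genes of both subunits. Mrps24 (ENSMUSG00000020477), the small subunit protein uS3m that lines the path by which the message enters, stood at 141, 121 and 119.8 FPKM in the vehicle group, and the treated libraries at 100.3, 78.5 and 87.9 FPKM. The groups did not overlap, and the means of 127 ± 12.2 and 88.9 ± 11.0 FPKM (SD, n = 3 each) gave a log2 fold change of -0.52 (SE 0.11, limma adjusted p = 0.012). Mrpl49 (ENSMUSG00000007338), a large subunit protein specific to mitochondrial ribosomes, was at 49.1, 43.6 and 47.7 FPKM with vehicle against 37.5, 30.8 and 32.2 FPKM. Its log2 fold change was -0.47 (SE 0.09, limma adjusted p = 0.009). In both genes the first arachidonic acid library lay nearest to vehicle, and still below all of it.

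Mrpl48 (ENSMUSG00000030706), a large subunit protein specific to mitochondrial ribosomes, fell with little spread in either group. It was listed at 39.3, 39.2 and 41.1 FPKM with vehicle and at 28.8, 28.1 and 29.2 FPKM with arachidonic acid, a log2 fold change of -0.46 (SE 0.06) and the smallest limma adjusted p of the members, 0.0025. Mrpl42 (ENSMUSG00000062981), another mitochondria-specific protein of the large subunit, went from 118, 104 and 109.8 FPKM to 87.2, 73.6 and 81.3 FPKM, with a log2 fold change of -0.46 (SE 0.08, limma adjusted p = 0.0075). Neither gene had an arachidonic acid library within the vehicle range.

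Mrpl27 (ENSMUSG00000024414), the counterpart of the bacterial protein L27 that reaches toward the site of peptide bond formation, stood at 89.9, 75.9 and 83.4 FPKM with vehicle and in the treated libraries at 71.2, 52.6 and 59.0 FPKM. Its log2 fold change of -0.45 (SE 0.12, limma adjusted p = 0.027) came with a wide spread, and the call was lost without the first or the third vehicle library (adjusted p = 0.097 and 0.080) or the second or the third arachidonic acid library (0.074 and 0.083). Mrpl9 (ENSMUSG00000028140), the counterpart of bacterial L9 at the foot of the L1 stalk, moved less but more evenly, from 67.9, 63.7 and 65.5 FPKM to 51.3, 49.3 and 52.6 FPKM. Its log2 fold change was -0.36 (SE 0.06, limma adjusted p = 0.0054).

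Mrpl52 (ENSMUSG00000010406), a large subunit protein specific to mitochondrial ribosomes, had the highest level of all members in both groups. Its values were 267, 229.9 and 258 FPKM with vehicle and 224, 194 and 203 FPKM with arachidonic acid, means of 252 ± 19.3 and 207 ± 15.5 FPKM (SD, n = 3 each). The log2 fold change was -0.28 (SE 0.09, limma adjusted p = 0.038), and every arachidonic acid library was under every vehicle library. The adjusted p was 0.114 to 0.124 without the first or the third vehicle library or without the second or the third arachidonic acid library.

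Of the other members that fell, apart from Mrps18c, which is given with its paralogs, 6 belong to the small subunit and 1 to the large subunit. Mrps35 went from a mean of 36.2 to 28.8 FPKM (log2 fold change -0.32, limma adjusted p = 0.012), Mrps11, the counterpart of bacterial S11 on the platform, from 27.3 to 20.998 FPKM (-0.37, 0.032), and Mrps26 from 31.6 to 25.2 FPKM (-0.32, 0.038). Mrps12, whose bacterial counterpart S12 sits at the decoding site, went from 86.5 to 69.9 FPKM (-0.30, limma adjusted p = 0.040), and Mrps22 from 20.8 to 15.9 FPKM (-0.38, 0.042). Mrpl47, the counterpart of bacterial L29 near the exit of the tunnel, went from 21.7 to 16.8 FPKM (-0.36, limma adjusted p = 0.045). Mrps14 had the smallest fall, from 39.1 to 34.2 FPKM (-0.19, limma adjusted p = 0.0495). Over the 15 genes the change in mean FPKM ran from -30.1% to -12.6%.

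Both members that rose encode proteins with bacterial counterparts. Mrpl17 (ENSMUSG00000030879), the counterpart of L17 near the tunnel exit, was nearly identical in the vehicle libraries at 28.9, 29.1 and 29.1 FPKM and stood at 35.4, 36.8 and 39.1 FPKM with arachidonic acid. The means of 29.0 ± 0.0835 and 37.1 ± 1.89 FPKM (SD, n = 3 each) gave a log2 fold change of 0.34 (SE 0.06, limma adjusted p = 0.0077). Mrps10 (ENSMUSG00000034729), the counterpart of S10 in the head of the small subunit, was at 47.7, 44.1 and 47.6 FPKM with vehicle and in the treated libraries at 51.7, 63.6 and 57.4 FPKM. Its log2 fold change was 0.30 (SE 0.09, limma adjusted p = 0.034), with groups that did not overlap. The Mrps10 call was lost in 8 of the 14 other settings, among them every omission of 1 library except that of the first arachidonic acid library, with adjusted p-values of 0.080 to 0.118 in those 5 omissions.

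**Figure D2:**
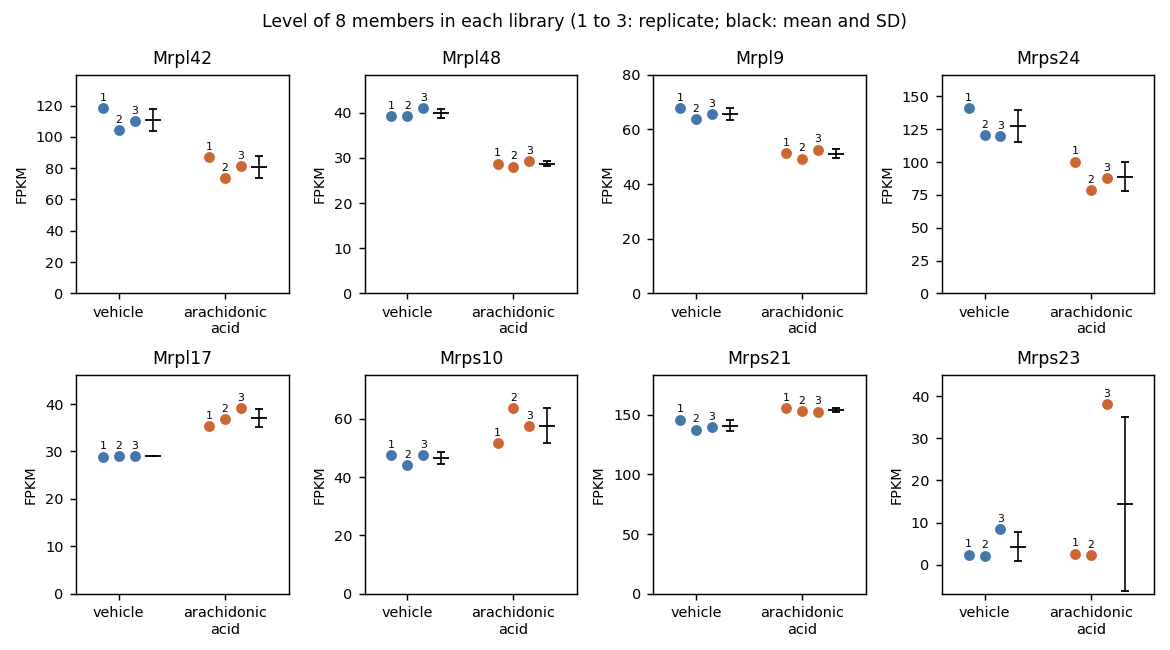
FPKM of 8 members in each library, with vehicle in blue, arachidonic acid in orange, the replicate number above each point and the mean with its SD in black. The arachidonic acid libraries lie under all vehicle libraries for Mrpl42, Mrpl48, Mrpl9 and Mrps24 and above them for Mrpl17, Mrps10 and Mrps21, while Mrps23 has 1 high library in each group.

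The stretch just before the start of transcription is shown for 7 of the 15 members that fell and for the pair that rose, because promoters of mitochondrial genes are known for a small set of factor motifs. Mrps24 and Mrpl42 are shown for the size of their fall, and Mrpl9, Mrpl27, Mrps22, Mrps26 and Mrpl52 were picked because they hold a motif there, so the windows do not compare members that fell with those that rose. Sequences are the 100 bases before the RefSeq start in the mouse assembly GRCm38.p6, 5′ to 3′ on the strand of the gene. Capitals mark the ETS motif CCGGAAG on either strand, to which GABP (nuclear respiratory factor 2) binds, or the palindromic NRF1 motif GCGCATGCGC. They come from chr11:5707702-5707801 (minus strand) for Mrps24, chr10:95501950-95502049 (minus) for Mrpl42, chr3:94443236-94443335 (plus) for Mrpl9, chr11:94653691-94653790 (plus) for Mrpl27, chr9:98601680-98601779 (minus) for Mrps22, chr2:130563657-130563756 (plus) for Mrps26, chr14:54426809-54426908 (plus) for Mrpl52, chr7:105811088-105811187 (minus) for Mrpl17 and chr17:47369097-47369196 (plus) for Mrps10.
Mrps24: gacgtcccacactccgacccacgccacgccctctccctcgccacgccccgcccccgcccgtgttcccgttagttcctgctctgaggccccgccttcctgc
Mrpl42: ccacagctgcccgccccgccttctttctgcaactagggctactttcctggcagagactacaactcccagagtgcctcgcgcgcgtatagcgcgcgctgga
Mrpl9: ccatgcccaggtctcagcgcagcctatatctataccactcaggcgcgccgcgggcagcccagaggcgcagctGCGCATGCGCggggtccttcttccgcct
Mrpl27: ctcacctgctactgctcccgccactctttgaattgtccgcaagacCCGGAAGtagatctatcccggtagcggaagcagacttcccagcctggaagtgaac
Mrps22: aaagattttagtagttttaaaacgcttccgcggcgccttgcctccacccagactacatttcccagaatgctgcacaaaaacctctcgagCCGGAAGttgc
Mrps26: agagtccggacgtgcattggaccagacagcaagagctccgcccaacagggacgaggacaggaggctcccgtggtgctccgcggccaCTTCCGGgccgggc
Mrpl52: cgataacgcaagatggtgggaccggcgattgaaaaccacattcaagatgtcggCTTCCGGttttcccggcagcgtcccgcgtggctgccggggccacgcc
Mrpl17: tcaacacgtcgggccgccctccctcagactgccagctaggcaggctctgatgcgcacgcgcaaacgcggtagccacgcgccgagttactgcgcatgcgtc
Mrps10: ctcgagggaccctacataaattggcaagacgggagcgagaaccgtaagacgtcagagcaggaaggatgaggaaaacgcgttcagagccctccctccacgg
Mrpl9 holds the NRF1 motif, Mrpl27 and Mrps22 hold the ETS motif on the strand of the gene, and Mrps26 and Mrpl52 hold it on the opposite strand. The windows of Mrps24, Mrpl42, Mrpl17 and Mrps10 hold neither exact run of letters.

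Over the longer RefSeq windows, 250 bases before to 50 after the start, 69 of the 78 members had an entry. The ETS motif was in 26 of them, 37.7%, against 21.6% of the tested protein-coding genes with an entry and 9.93% of all genes in the table. The motif AAGATGGC of YY1, a factor of many housekeeping promoters, was in 12 members, 17.4%, against 5.63% of the tested genes and 3.19% of all. The NRF1 motif was in 3 members, 4.35%, against 2.49% and 1.07%. The E-box CACGTG, bound by MYC with MAX, was in 7.25% of members and 12.2% of tested genes, and the GC box GGGCGG was in 49.3% and 69.9%. All motifs were searched on both strands.

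Each motif was found both in members that fell and in members that did not. The ETS, YY1 and GC box motifs were in a larger share of the members that fell than of those not called. Of the 14 members with an entry that fell, 7 held the ETS motif and 5 the YY1 motif. Of the 53 not called, 18 and 7 did, and these 53 include Mrpl53, which was not tested and held the ETS motif. Of the 2 that rose, 1 held the ETS motif in the longer window and 0 the YY1 motif. The GC box was in 10 of the 14, 23 of the 53 and 1 of the 2. The NRF1 motif was in 1, 2 and 0 of these groups, and the E-box in 1, 4 and 0. The median log2 fold change was -0.15 in members with the ETS motif and -0.17 in those without it. It was -0.22 and -0.15 for the YY1 motif, and -0.19 and -0.11 for the GC box. These matches are descriptions of letters and were not tested.

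The 2 subunits had similar medians. Among large subunit genes, 7 of 50 tested were lower (14.0%) and 1 was higher (2.0%), at a median log2 fold change of -0.15. In the small subunit, 8 of 26 were lower (30.8%) and 1 was higher (3.85%), with a median of -0.19. In this fit 19.4% of all genes tested were lower and 20.8% higher. The share that fell thus lay under this background in the large subunit and above it in the small. The ratio of the mean large subunit level to the mean small subunit level was 1.337, 1.308 and 1.324 with vehicle and 1.317, 1.285 and 1.296 with arachidonic acid, with overlapping groups. Proteins with a bacterial counterpart had 8 of 46 genes lower (17.4%) and 2 higher (4.35%), at a median of -0.14. Those specific to mitochondrial ribosomes had 7 of 30 lower (23.3%) and 0 higher, at a median of -0.19. Mrps18a and Mrps18b are counted in this class although they are related to bacterial S18, and Mrps18c is counted in the bacterial class. With TPM the large subunit had 5 lower and 2 higher, the small subunit 3 and 3, the class with bacterial counterparts 4 and 4, and the mitochondria-specific class 4 and 1. In that fit 15.9% of all genes were lower and 23.9% higher, and the small subunit no longer lay above the background for falls. Without the first arachidonic acid library 21 of the large and 16 of the small subunit genes were lower, and without any other single library 4 to 6 and 2 to 4. The same omissions gave 21 and 2 to 5 lower genes in the bacterial class and 16 and 3 to 5 in the mitochondria-specific class. Of all genes, 32.4% were lower without the first arachidonic acid library and 9.63% to 11.5% without any other. The side of the background on which each subunit lay thus depended on the setting. Differences between subunits or classes were not tested. Mrps30 and Mrps18a are counted with the large subunit, where their proteins sit, and Mrps36, now known as a component of the 2-oxoglutarate dehydrogenase complex, is counted with neither (log2 fold change -0.12, limma adjusted p = 0.48).

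The summed level of the members followed the single genes. It was 4725, 4370 and 4599 FPKM with vehicle and 4356, 3852 and 4143 FPKM with arachidonic acid, so every arachidonic acid library was lower, the first by little. As a share of all FPKM the members made up 0.592%, 0.566% and 0.591% with vehicle against 0.577%, 0.519% and 0.548%, and here the first arachidonic acid library lay inside the vehicle range. The order of the genes by level was nearly the same in the 2 groups, with a Spearman rho of 0.976 across the 77 genes, which are not independent of each other and share each library's depth. Levels in the vehicle libraries ran from 4.32 FPKM (Mrps23) to 252 FPKM (Mrpl52), with a median of 52.1 FPKM and a middle range of 34.3 to 72.3 FPKM. The median with arachidonic acid was 47.5 FPKM.

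The arachidonic acid libraries differed among themselves. The first was the highest of the 3 for 54 of the 77 members and the second was the lowest for 58. Relative to each gene's vehicle mean, the median member lay at -0.07, -0.24 and -0.15 log2 units in the 3 arachidonic acid libraries and at 0.03, -0.05 and 0.01 in the vehicle libraries. For the 15 genes that fell, the first library's distance from the vehicle mean was a median of 0.61 of that of the other two, from 0.285 to 0.991. The coefficient of variation within a group had a median of 5.36% with vehicle and 8.53% with arachidonic acid. The first arachidonic acid library had the most fragments, 50.8 M, and the part of depth in its position was not tested. All 15 genes called lower with 6 libraries were among the 37 called lower without it.

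**Figure D3:**
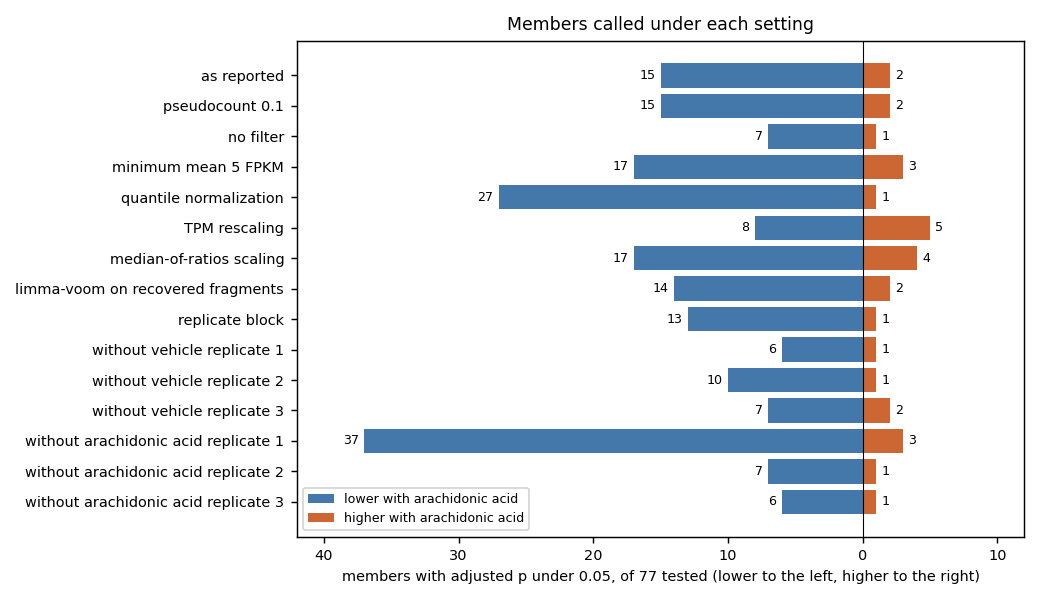
Number of members called lower (blue, to the left) and higher (orange, to the right) with arachidonic acid, at an adjusted p under 0.05, as reported and under each of 14 other settings. The counts run from 6 to 37 lower and from 1 to 5 higher, and the longest bar is the one without the first arachidonic acid library.

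A core of 6 members passed the threshold in the same direction in all 14 other settings. These were Mrpl17, which rose, and Mrpl9, Mrpl42, Mrpl48, Mrpl49 and Mrps24, which fell. Mrps18c and Mrps35 passed in 13 of the 14, with highest adjusted p-values of 0.056 and 0.055. The other 9 passed in 4 (Mrps14) to 9 (Mrpl27) of the 14, and each of these lost its call when the first vehicle library, the third vehicle library, the second arachidonic acid library or the third arachidonic acid library was left out, with adjusted p-values of up to 0.150 (Mrps14). None of the 17 called members changed sign in any of these settings. The groups of all 17 did not overlap, so leaving out a single library could not reverse a sign. Nor could a change of filter or a replicate block. The unchanged signs thus bear only on the settings that rescale the values.

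The 60 members that passed in neither direction included 48 below 0 and 12 above. Of these, 16 had a limma adjusted p under 0.1, of which 14 were below 0, and 16 had all arachidonic acid libraries under all vehicle libraries. Mrps21 (ENSMUSG00000054312), the small subunit counterpart of bacterial S21 and among the most abundant members, was at 146, 138 and 139 FPKM with vehicle and at 155, 153 and 153 FPKM with arachidonic acid. The groups did not overlap, but the log2 fold change of 0.13 (SE 0.05) had a limma adjusted p of 0.11, and 0.031 with TPM. Mrpl30 (ENSMUSG00000026087), at a like level, was at 149, 136 and 138 FPKM with vehicle and 128, 119.95 and 146 FPKM with arachidonic acid, which overlap (log2 fold change -0.11, SE 0.09, limma adjusted p = 0.36).

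Other members lay close to 0. Mrpl43, a mitochondria-specific large subunit protein, was at 57.3, 49.3 and 53.6 FPKM with vehicle and at 55.9, 50.5 and 53.7 FPKM with arachidonic acid, a log2 fold change of 0.00 (SE 0.08). Mrpl57 was at 59.5, 47.5 and 52.4 FPKM against 49.0, 50.7 and 59.3 FPKM (0.00, SE 0.11), and Mrpl35, the counterpart of bacterial L35, at 18.7, 18.4 and 20.2 FPKM against 20.998, 18.3 and 18.5 FPKM (0.01, SE 0.08). In all 3 the groups overlapped. In total 20 members had a log2 fold change within 0.1 of 0, where the median standard error of a member was 0.09.

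At the low end, Mrpl1 (ENSMUSG00000029486), the counterpart of the L1 stalk protein, was at 10.1, 9.72 and 9.50 FPKM with vehicle and 9.45, 8.63 and 10.6 FPKM with arachidonic acid (log2 fold change -0.03, SE 0.09). Mrps30 (ENSMUSG00000021731) was at 6.39, 7.05 and 7.69 FPKM against 7.63, 6.31 and 6.54 FPKM (-0.04, SE 0.11). Neither differed beyond its spread. Mrps23 (ENSMUSG00000023723), a small subunit protein, was at 2.39, 2.16 and 8.41 FPKM with vehicle and at 2.63, 2.32 and 38.2 FPKM with arachidonic acid. The third library of each group was thus far above the other two, and the log2 fold change of 0.74 (SE 0.98, limma adjusted p = 0.57) turned to -0.42 without the third arachidonic acid library. No other annotated gene overlaps its exons in GENCODE M21. Mrpl53 was listed at 0 in all 6 libraries, and 88.0% of its exon bases also lie in the gene model Gm42688.

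The 3 Mrps18 paralogs, each related to bacterial S18, occupy different places in the ribosome and did not follow a common course. Mrps18c (ENSMUSG00000016833), which takes the place of S18 in the small subunit, fell from 37.0, 32.8 and 34.3 FPKM to 28.1, 23.4 and 26.5 FPKM (log2 fold change -0.41, SE 0.09, limma adjusted p = 0.013). Mrps18b (ENSMUSG00000024436), at another site of the small subunit, was at 31.4, 29.5 and 31.7 FPKM with vehicle and 34.9, 30.2 and 31.9 FPKM with arachidonic acid (0.06, SE 0.08, adjusted p = 0.53). Mrps18a (ENSMUSG00000023967), which sits in the large subunit, was at 42.4, 38.4 and 46.3 FPKM against 42.6, 39.6 and 39.4 FPKM (-0.06, SE 0.08, adjusted p = 0.60). The groups did not overlap for Mrps18c and overlapped for the other two. The difference between the paralogs was not tested.

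Subunits of the mitochondrial ribosome that carry other symbols were compared as well, and 0 of 5 passed (limma adjusted p under 0.05; at an unadjusted p under 0.05 the count was also 0). Dap3, a GTP-binding small subunit protein, was at 82.9, 83.1 and 82.5 FPKM with vehicle and 79.6, 93.4 and 95.3 FPKM with arachidonic acid (log2 fold change 0.11, limma adjusted p = 0.33), and passed as higher without the first arachidonic acid library (0.19, adjusted p = 0.015). Chchd1 was at 154, 136 and 118 FPKM against 116, 101 and 121 FPKM (-0.27, adjusted p = 0.10), and Aurkaip1 at 136, 116 and 119 FPKM against 128, 134 and 141 FPKM (0.12, adjusted p = 0.25). Gadd45gip1 had a log2 fold change of -0.17 and Ptcd3 of 0.05, with overlapping groups. The median of these 5 genes was 0.05, and it was -0.03 without the first arachidonic acid library.

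Factors that build and modify the mitochondrial ribosome had 7 of 27 tested genes lower (25.9%) and 2 higher (7.41%), with a median log2 fold change of -0.11. For this list and the next ones, the shares over all genes tested were 19.4% lower and 20.8% higher. In the other fits cited for these lists the shares differ. They were 15.9% lower and 23.9% higher with TPM, 23.0% and 18.7% with quantile normalization, and 7.46% and 9.11% with no filter. Without the first arachidonic acid library they were 32.4% and 27.5%. Without any other single library they were 9.63% to 11.5% lower and 13.3% to 15.1% higher. The falls included all 3 methyltransferases that act on ribose of the large ribosomal RNA. Mrm3 went from 20.8 ± 1.43 to 14.7 ± 0.907 FPKM (SD, n = 3 each, log2 fold change -0.47, limma adjusted p = 0.0065), Mrm1 from 31.2 to 24.0 FPKM (-0.36, 0.0079) and Mrm2 from 9.76 to 6.64 FPKM (-0.50, 0.018). In each of the 3 the groups did not overlap. The call of Mrm2 was lost when any vehicle library was left out (adjusted p = 0.054 to 0.070). The count of lower genes was 10 without the first arachidonic acid library and 2 to 4 without any other single library.

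Factors of mitochondrial translation moved in both directions. Of 16 tested, 2 were lower and 1 was higher, with 1 and 2 under TPM and 4 and 1 under quantile normalization, and the median of -0.04 turned to 0.01 with TPM. The counts were 5 lower and 3 higher without the first arachidonic acid library, and 1 or 2 lower and 0 or 1 higher without any other single library. Oxa1l, the insertase that receives nascent proteins at the inner membrane, fell from 91.3 to 74.1 FPKM (log2 fold change -0.30, limma adjusted p = 0.0096), and Mrrf, the ribosome recycling factor, fell from 15.3 to 10.9 FPKM (-0.45, 0.036). Gfm1, the elongation factor that moves the ribosome along the message, rose from 35.4 to 46.0 FPKM (0.37, limma adjusted p = 0.029). Among enzymes that charge mitochondrial transfer RNAs, 5 of 20 were lower and 2 higher, with a median of -0.09. Rars2 fell from 75.1 to 61.0 FPKM (-0.30, limma adjusted p = 0.011) and Hars2 from 35.0 to 27.2 FPKM (-0.36, 0.015), while Qrsl1, part of the enzyme that makes glutaminyl transfer RNA, rose from 11.9 to 17.8 FPKM (0.54, 0.0033). Without the first arachidonic acid library 9 of the 20 were lower, and leaving out any other single library left 0 to 2. The calls of Gfm1 (adjusted p = 0.053 to 0.090) and Hars2 (0.053 to 0.060) were each lost in 4 such omissions, the first vehicle library and the second and the third arachidonic acid libraries among them. The call of Mrrf was lost in 4 (0.108 to 0.119, the second and the third libraries of both groups), and that of Rars2 without the third arachidonic acid library (0.052).

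Genes that transcribe and maintain the mitochondrial genome had 5 of 11 lower and 1 higher, at a median log2 fold change of -0.26. Polrmt, the mitochondrial RNA polymerase, fell from 28.0 ± 0.165 to 19.9 ± 2.06 FPKM (SD, n = 3 each, -0.47, limma adjusted p = 0.0073), and Mgme1, a nuclease of mitochondrial DNA, fell from 15.6 to 11.0 FPKM (-0.48, 0.013). Lonp1, the protease of the matrix, rose from 96.5 to 157 FPKM (0.69, limma adjusted p = 0.0032). The count of lower genes was 6 without the first arachidonic acid library and 1 or 2 without any other single library, with Mgme1 lost without the first or second vehicle library (adjusted p = 0.0503 and 0.054). Among regulators of nuclear genes for mitochondria, 1 of 10 passed, Esrra, a nuclear receptor that works with PGC-1 coactivators, which fell from 348 to 284 FPKM (-0.29, limma adjusted p = 0.025). Its adjusted p was 0.064 to 0.093 without the first or second vehicle library or without the second or the third arachidonic acid library. Nrf1 was at 23.7, 23.7 and 24.3 FPKM with vehicle and at 24.0, 16.7 and 17.8 FPKM with arachidonic acid (-0.30, adjusted p = 0.11), and passed as lower without the first arachidonic acid library (adjusted p = 0.00063). Myc was at 48.8, 50.2 and 51.6 FPKM against 65.3, 56.1 and 55.9 FPKM, groups that did not overlap (0.23, adjusted p = 0.057, and 0.030 with TPM).

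The messages that the mitochondrial ribosome translates are set beside its proteins. Of the 13 protein-coding genes of the mitochondrial genome, 9 were lower (69.2%) and 0 higher, at a median log2 fold change of -0.998. The count of lower genes was 7 with TPM and 6 with no filter on low values. It was 11 without the first arachidonic acid library and 6 or 7 without any other single library. The 13 genes made up 3.38%, 4.03% and 3.09% of fragments with vehicle and 2.58%, 2.38% and 2.17% with arachidonic acid. The smallest p-values were those of mt-Atp6, mt-Co3 and mt-Cytb, and mt-Co3, a subunit of cytochrome c oxidase, fell from 68.3 to 31.0 FPKM (-1.13, limma adjusted p = 0.0021). Reads from these genes can be shared with nuclear copies, so their levels are uncertain. The nuclear-encoded subunits of oxidative phosphorylation had a median of -0.18, with 27 of 79 lower and 1 higher (20 and 4 with TPM, 44 lower without the first arachidonic acid library and 8 to 13 without any other single library), for example Ndufb11, a complex I subunit, which fell from 225 to 165 FPKM (-0.45, limma adjusted p = 0.0035). Cytosolic ribosomal proteins had a median of -0.40, with 61 of 79 lower and 0 higher (37 lower with quantile normalization, at a median of -0.23), for example Rps19, which fell from 1690 to 1123 FPKM (-0.59, limma adjusted p = 0.0021), though processed pseudogenes can share their reads. The 3 lists and the mitochondrial ribosomal proteins were measured in the same 6 libraries, and differences between the lists were not tested.

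**Figure D4:**
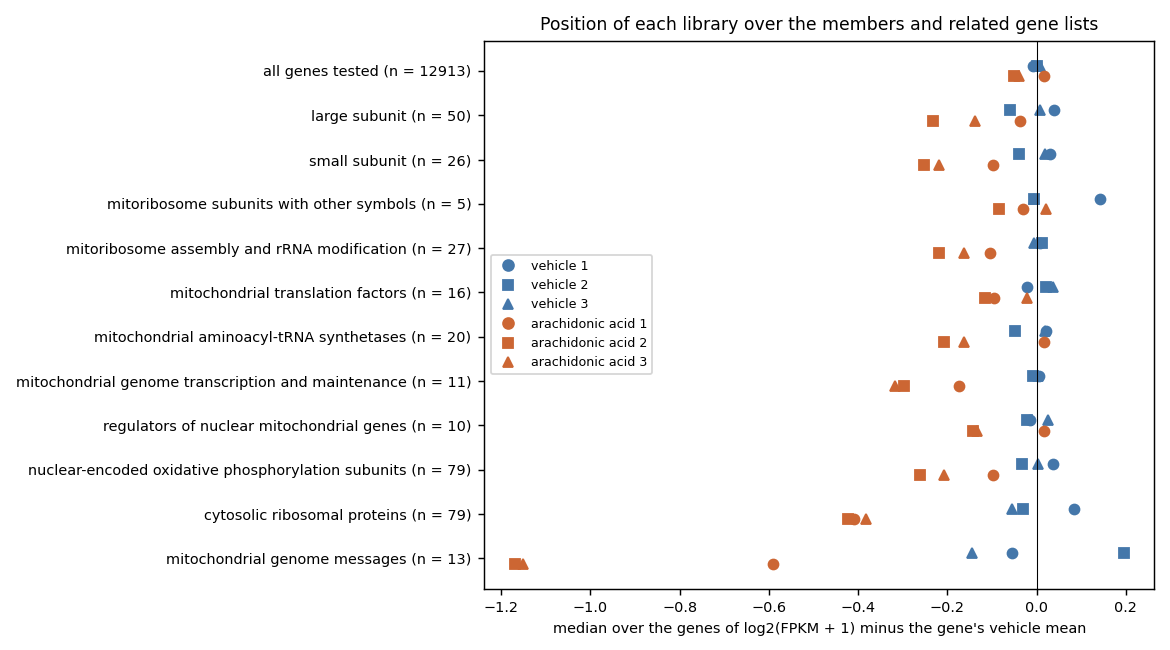
Median position of each library over the genes of each list, as log2(FPKM + 1) minus the vehicle mean of each gene, with vehicle in blue, arachidonic acid in orange and the replicate given by the shape. For large and small subunit genes the arachidonic acid libraries lie at -0.04, -0.23 and -0.14 and at -0.10, -0.25 and -0.22, between the position of all genes tested and that of cytosolic ribosomal proteins.

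Some mitochondrial ribosomal protein genes start close to a gene on the opposite strand, and whether such pairs share a promoter was not tested. In the GENCODE M21 annotation, 19 of the 78 members, 24.4%, had a protein-coding neighbour that starts head to head within 1000 bases (or with an overlap of at most 100 bases), against 11.7% of 11008 tested protein-coding genes. In 17 pairs both genes were tested, and 3 neighbours were lower, 0 higher and 14 passed in neither direction. The share of neighbours that fell lay close to that of all genes tested, where 19.4% were lower and 20.8% higher. Fau, a fusion gene of a ubiquitin-like protein and the cytosolic ribosomal protein S30, is paired with Mrpl49 and fell from 2546 to 1816 FPKM (log2 fold change -0.48, limma adjusted p = 0.014). Sars2, the mitochondrial seryl transfer RNA synthetase, is paired with Mrps12 and fell from 19.4 to 13.9 FPKM (-0.46, limma adjusted p = 0.027). Cyb5rl, paired with Mrpl37, fell from 5.75 to 3.26 FPKM (-0.67, limma adjusted p = 0.0063), while Mrpl37 itself was at -0.28 (adjusted p = 0.055).

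The sequences between the RefSeq starts of the 2 pairs in which both genes fell are shown on the strand of the mitochondrial ribosomal protein gene, chr19:6057756-6057946 (minus strand) for Mrpl49 with Fau and chr7:28741822-28741967 (minus strand) for Mrps12 with Sars2, in GRCm38.p6. They are all in lower case, since neither stretch holds the exact ETS, NRF1 or YY1 letters. The stretches are 191 and 146 bases long, while the GENCODE M21 starts of these pairs lie 59 and 172 bases apart. The 2 annotations thus differ in where the genes start. In the longer windows, which run past the start, Mrpl49 held 1 YY1 match and Mrps12 held 1 ETS and 1 YY1 match.
Mrpl49 to Fau: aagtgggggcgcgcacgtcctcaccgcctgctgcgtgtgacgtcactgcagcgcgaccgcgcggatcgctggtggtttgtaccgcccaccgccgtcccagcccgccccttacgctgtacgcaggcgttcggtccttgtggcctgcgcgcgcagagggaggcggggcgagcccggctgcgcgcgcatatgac
Mrps12 to Sars2: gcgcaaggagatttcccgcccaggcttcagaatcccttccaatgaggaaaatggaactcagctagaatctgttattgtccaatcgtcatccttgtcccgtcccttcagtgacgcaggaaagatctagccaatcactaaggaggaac
Across the 17 pairs the changes of the partners were not alike. The Pearson correlation of the log2 fold changes was 0.08 and Spearman's rho was 0.00 over 17 pairs that share the 6 libraries, given as a description, and 12 pairs had the same sign. Mrps18c, which fell, is paired with the DNA helicase gene Helq, at a log2 fold change of 0.12 (limma adjusted p = 0.29).

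The labels do not say whether fragments were counted by strand, so reads of overlapping genes cannot be told apart. In GENCODE M21, 33 of the 78 members share exon bases with another gene model, 18 of them over more than 10% of their exon bases and 3 over more than 50%. Among called members over 10% were Mrps24 (15.4%, with Urgcp), Mrps18c (23.2%, with Gm43511) and Mrpl47 (24.2%, of which 13.9% with Ndufb5 and 10.2% with Actl6a). Members over 10% that were not called include Mrps34 (77.8%), Mrps25 (69.8%), Mrpl43 (33.4%, with Twnk) and Mrps18b (30.5%, with Gm16279). Mrps11 and Mrpl46 overlap each other, over 7.97% and 12.2% of their exon bases, and Mrpl46 was at -0.31 (limma adjusted p = 0.13). The part of these overlaps in the values was not tested.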

How the data were processed

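The labels name total RNA from 6 organoid libraries. The deposited values are FPKM, in which the authors scaled the fragments of a gene by transcript length and by library size. The unit was inferred from the values, since FPKM multiplied by the mean transcript length in GENCODE M21 fell within 0.1 of a whole number of fragments for 96.3% to 96.7% of values under 100 fragments. The tools were featureCounts 1.5.0-p3, HISAT2 2.0.5 and StringTie 1.3.3b, per the submitters' processing notes. Build, annotation and strand were not stated in the sources.

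Groups were taken from the labels, 3 libraries each. After a filter that kept 12913 genes averaging 1 FPKM or more, log2(FPKM + 1) of the whole table was fitted by limma 3.58.1 in R 4.3.3, with the variance trended on the mean. Tests are two-sided, with Benjamini-Hochberg adjustment over those genes and a threshold of 0.05. A log2 fold change is arachidonic acid minus vehicle on that scale and understates the change of low genes. Members were covered by about 401 to 5992 fragments a library, as computed from the mean transcript lengths, apart from Mrps23 (from 68.0) and Mrpl53 (0). For many members these numbers were not whole in every library, for example 400.6 for Mrps18c and 998.3 for Mrpl49 at their lowest, so they are approximate. The fit was tested on simulated data, with 50 changes of each size. It recovered 38% of log2 changes of 0.3 and 34% of those of -0.3. For changes of 0.6 and -0.6 it recovered 100% and 98%, with 7 false calls. The test data had the same dispersion, 0.0029, for all genes. Recovery and false calls were not tested at the wider spread of the arachidonic acid libraries, or where 40.2% of genes are called.

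Genes named by rule are the largest changes and smallest p-values in each direction, the 3 highest, 3 lowest and 3 least changed members, the Mrps18 paralogs, subunits with other symbols, and up to 3 genes of each list with the smallest p. Others were chosen after their values were seen, namely the other called members, Mrps36, Mrpl46, Mrpl37, Mrpl53, Cd68 and the neighbours of members. The members and lists were chosen with earlier results of these data known. Of the listed genes 1 (Mtrfr) was not matched, and Pdf, Slirp and Mpv17l2 were under the filter. Symbols came from the reference name table, motifs and neighbours were computed in Python 3.11.15, and 14 other settings were tried.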

Additional observations from a re-analysis of the deposited data

How the results depend on the processing

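As reported, 2 members were higher and 15 lower. The counts were 1 and 7 with no filter on low values (7.46% of all genes lower in that fit, 9.09% of members), 1 and 27 with quantile normalization (23.0% of all genes lower), 5 and 8 with TPM (23.9% of all genes higher and 15.9% lower), 4 and 17 with median-of-ratios scaling (21.5% and 19.5%), and 3 and 17 with a minimum mean of 5 FPKM (22.5% and 20.5%). Limma-voom on recovered fragments gave 2 and 14 (20.1% and 19.4%). Leaving out 1 library gave 1 to 3 higher and 6 to 37 lower, where 13.3% to 27.5% of all genes were higher and 9.63% to 32.4% lower. The cause was not tested. The median log2 fold change of the members kept its sign and stayed within the spread between libraries in every setting, from -0.20 to -0.11, as did those of the large subunit (-0.18 to -0.09) and the small subunit (-0.23 to -0.13). The median of all genes tested lay between -0.06 and 0.03. With a replicate block, 1 was higher and 13 were lower (17.5% and 15.5% of all genes). Same-numbered libraries did not deviate together in all pairs (correlations of -0.08, 0.21 and -0.06), so the numbers were not taken to pair the cultures.

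Among the named genes and these settings, signs reversed only for genes near 0 and for Mrps23. With TPM, Mrps30 was 0.011, Mrpl1 0.019 and Mrpl57 0.056, and Mrpl57 was 0.015 with median-of-ratios scaling. With quantile normalization, Mrpl43 was -0.051 and Mrpl35 -0.0098. With 1 library left out, the log2 fold change ran from -0.42 to 1.36 for Mrps23, -0.11 to 0.017 for Mrps30, -0.10 to 0.029 for Mrpl1, -0.055 to 0.052 for Mrpl43, -0.085 to 0.080 for Mrpl57, -0.048 to 0.050 for Mrpl35, -0.13 to 0.0056 for Mrps18a and -0.032 to 0.12 for Ptcd3. Of the other single-gene results, 611 kept their side of the threshold, 48 lost the call and 6 gained it, and 15 of 22 called genes named from the lists kept it in all 14 settings. With 3 libraries a group, members short of the threshold are not shown to be unchanged.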
